A study of Mus musculus with 8 samples.

Results

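The genes described here encode 7 inward rectifier potassium channel subunits, Kcnj2, Kcnj4, Kcnj3, Kcnj6, Kcnj9, Kcnj10 and Kcnj16, and 3 two-pore potassium channel subunits, Kcnk1, Kcnk2 and Kcnk3. They were chosen by symbol, and every probe set that the platform annotation assigns to exactly 1 of these genes was taken. This gave 24 of the 34945 single-gene probe sets of the array, for 10 of 18193 genes. The study measured total RNA of the striatum on Affymetrix expression arrays of the mouse genome, with 1 array for each of 8 mice aged 22 months of the strain C57BL/6 X CBA F1 hybrid. The 4 CHL2 mutant mice, 141, 153, 154 and 191, carry 150 CAG repeats from exon 1 of the human Huntington's disease gene in both copies of their own Htt gene, and this germline change is not limited to a cell type. The 4 wild-type mice, 161, 170, 180 and 200, carry no such insertion. Mutants 141, 153 and 154 and wild-type 161 were female, and mutant 191 and wild-type 170, 180 and 200 were male. The comparison asks which of these channel transcripts differ in old mutant striatum.

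Inward rectifiers pass potassium more easily into the cell than out of it, and so hold a resting neuron near the potassium equilibrium potential. In medium spiny neurons, the output neurons of the striatum, Kir2 channels set the hyperpolarised resting state. In neurons that hold Kir3 channels, the beta-gamma subunits of G proteins open them. This follows activation of receptors such as those for dopamine, opioids or GABA. Kir4.1 and Kir5.1 are mainly glial and take up potassium released by active neurons. Two-pore channels carry a background leak that sets input resistance and is tuned by lipids, stretch, pH and G protein signalling.

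All values are deposited log2 RMA values. RMA is a method that corrects background, equalises the distributions of the arrays and gives 1 value per probe set. Changes are mutant minus wild type, adjusted for recorded sex in a limma model fitted to all genes, with Benjamini-Hochberg adjustment over all genes and a threshold of 0.05. Each gene is represented by its brightest single-gene probe set unless a probe set is named, and 5, the log2 of a signal of 32, is used as a mark below which a signal is near background. Levels of different probe sets are not compared with each other. Array medians lay between 4.95 and 4.98, and the correlation between arrays of 1 group was 0.989 to 0.996. Wild-type 170 stood apart in RNA quality. Its 3' minus 5' difference was 1.37 for the Gapdh control probes and 2.65 for the beta-actin control probes, against 0.32 to 0.43 and 1.23 to 1.51 in the other 7 mice, so values without it are given for the channel genes where they change a call. Transcripts of medium spiny neurons were present as the tissue label implies, since none of the 22 measured markers of these neurons had all 8 values under 5. The number of mice, 4 a group, limits the precision of every value.

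Of the 10 genes, 3 fell in the mutants (Kcnj4, Kcnk1 and Kcnk2), 1 rose (Kcnj3) and 6 did not pass the threshold. Over all 18193 genes tested, 12.4% passed, with 6.01% lower and 6.40% higher in mutants. For 3 of the 10 genes, the same 3 that fell, every mutant lay below every wild-type mouse, as for 9.27% of all genes (20.7% did not overlap in either direction). The median log2 change was -0.02 over the 10 genes and 0.01 over all genes. For 2 of the 10, Kcnj2 and Kcnj6, all 8 values lay under 5. The plot of the genes by mouse shows these levels.

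**Figure D1:**
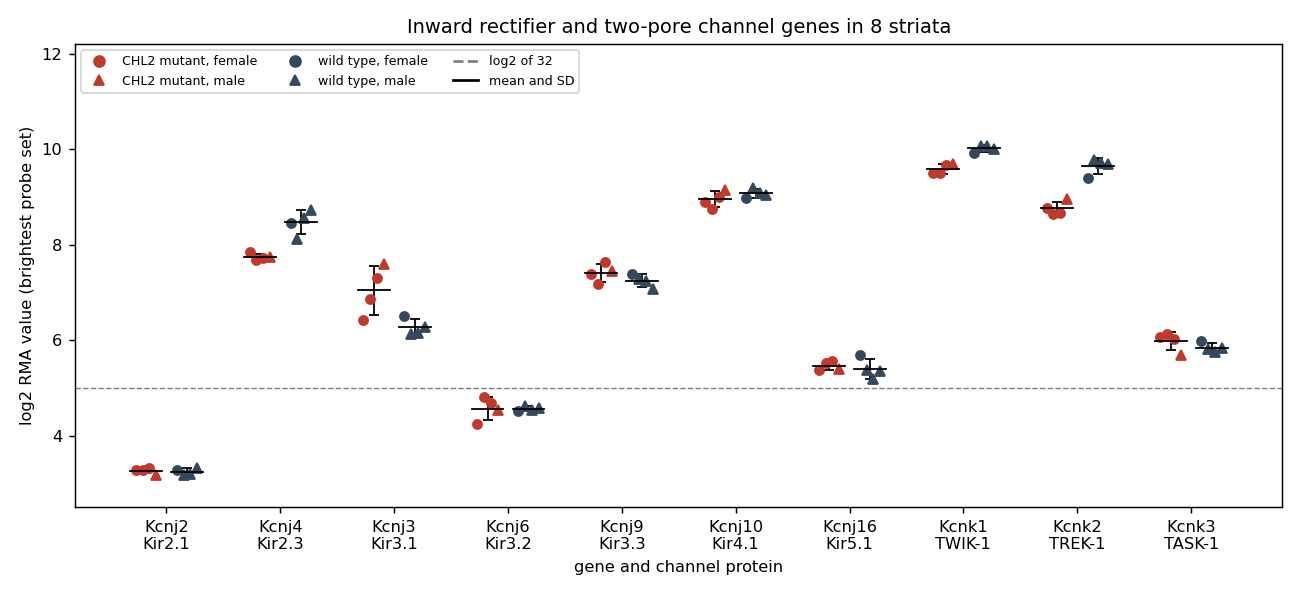
Deposited log2 RMA value (y axis) of the brightest probe set of each of the 10 channel genes (x axis) in each mouse, with CHL2 mutants in red left of wild-type mice in blue, circles for females and triangles for males, and bars for the group mean and SD (n = 4 each). Kcnj4, Kcnk1 and Kcnk2 are lower in all 4 mutants than in any wild-type mouse, the mutant values of Kcnj3 spread from 6.42 to 7.60, and Kcnj2 and Kcnj6 lie under the dashed line at 5.

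Kcnj4 encodes Kir2.3, a strong inward rectifier of forebrain neurons. Its single probe set read 7.84, 7.67, 7.71 and 7.73 in mutants 141, 153, 154 and 191, against 8.45, 8.12, 8.57 and 8.72 in wild-type 161, 170, 180 and 200. All mutants were below all wild-type mice, with means of 7.74 ± 0.07 in mutants and 8.47 ± 0.25 in wild-type mice (SD, n = 4 each). The wild-type values were 8.58 ± 0.13 (SD, n = 3) without mouse 170. The sex-adjusted log2 change was -0.72 (SE 0.14, 95% interval -1.03 to -0.42, limma adjusted p = 0.00668), which is 1.65-fold lower in mutants. The change kept its size when mice 161 or 191 were left out (-0.74 and -0.71), though the call did not hold there with sex in the model (limma adjusted p = 0.0769 without 161 and 0.0967 without 191). Each of these mice is the only one of its sex in its group. Without a sex term, the call held when 191 was left out (limma adjusted p = 0.00454).

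Kcnj2 encodes Kir2.1, which assembles with Kir2.3 in the same channel tetramers. Its single probe set read 3.18 to 3.32 in mutants and 3.19 to 3.33 in wild-type mice. The groups overlapped fully, and at this level, near background on every array, a change in Kir2.1 transcript was not detectable with this probe set. The fit gave a log2 change of -0.02 (95% interval -0.20 to 0.16, limma adjusted p = 0.915).

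Kcnk2 encodes TREK-1, a background channel opened by stretch, heat and polyunsaturated lipids and closed by G protein pathways that act through protein kinases. It showed the lowest adjusted p of the 10 genes. Mutants 141, 153, 154 and 191 read 8.76, 8.64, 8.67 and 8.96, against 9.40, 9.77, 9.70 and 9.69 in wild-type 161, 170, 180 and 200. All 4 mutants were lower than every wild-type mouse. The male mutant 191 was the highest of its group, and the female wild-type 161 the lowest of its own. The sex-adjusted log2 change was -0.74 (SE 0.08, 95% interval -0.91 to -0.56, limma adjusted p = 0.000270), 1.67-fold lower in mutants. The difference of the group means was -0.88 (8.76 ± 0.14 in mutants and 9.64 ± 0.17 in wild-type mice, SD, n = 4 each), larger than the adjusted value because the model also placed females below males by 0.29 (limma adjusted p = 0.311). The fall passed in all 21 other settings of the fit, with log2 changes between -0.96 and -0.71.

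Kcnk1 encodes TWIK-1, a weakly conducting two-pore subunit found in neurons and astrocytes. Its brightest probe set read 9.49, 9.51, 9.67 and 9.69 in mutants 141, 153, 154 and 191, against 9.93, 10.07, 10.07 and 9.99 in wild-type 161, 170, 180 and 200. The groups did not overlap, and the log2 change was -0.36 (SE 0.08, 95% interval -0.55 to -0.18, limma adjusted p = 0.0170), 1.29-fold lower in mutants. A second, dimmer probe set read 7.25 to 7.55 in mutants and 7.27 to 7.87 in wild-type mice. Its groups overlapped, its log2 change was also -0.36, and it did not pass among all 45037 non-control probe sets (limma adjusted p = 0.171). Its lowest wild-type value, 7.27, was that of mouse 170, and without that mouse it passed (log2 change -0.43, limma adjusted p = 0.0432). In the gene fit, the call on the brightest probe set was lost without 161 or 191 (limma adjusted p = 0.147 and 0.149), with log2 changes of -0.36 and -0.37. With no sex term it held without 191 (limma adjusted p = 0.00482). Tested among all probe sets, the brightest passed (limma adjusted p = 0.0353). There its call was lost without 161 or 191 and also without 141, 153, 180 or 200 (limma adjusted p between 0.0531 and 0.0754 for these last mice).

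Kcnk3 encodes TASK-1, an acid-sensitive leak channel that neurotransmitter receptors coupled to Gq close. Its brightest probe set read 6.07, 6.12, 6.03 and 5.69 in mutants 141, 153, 154 and 191, against 5.97, 5.81, 5.75 and 5.83 in wild-type 161, 170, 180 and 200. The groups overlapped, with a log2 change of 0.00 (95% interval -0.18 to 0.18, limma adjusted p = 1.00). The other probe sets, both with all values under 5, gave log2 changes of -0.19 and 0.11, and neither passed. Of the 3 two-pore genes, Kcnk1 and Kcnk2 therefore fell while the interval for Kcnk3 excluded a change of the size seen in Kcnk2.

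The 3 genes that fell are shown here with the sequence in front of a start site, to set side by side the promoters of genes that moved together. RefSeq promoter sequences (GRCm38.p6) were found for 9 of the 10 genes. Each line gives the 250 bases before a transcript start, 5' to 3' on the strand of the gene, with the most upstream start of the table where a gene has several. Capitals mark matches, on either strand, to the GC box GGGCGG, the cyclic AMP response element TGACGTCA, its part TGACG, which lies inside the full element, or the Egr motif GCGNGGGCG.
Kcnj4, chr15:79505242-79505491, minus strand: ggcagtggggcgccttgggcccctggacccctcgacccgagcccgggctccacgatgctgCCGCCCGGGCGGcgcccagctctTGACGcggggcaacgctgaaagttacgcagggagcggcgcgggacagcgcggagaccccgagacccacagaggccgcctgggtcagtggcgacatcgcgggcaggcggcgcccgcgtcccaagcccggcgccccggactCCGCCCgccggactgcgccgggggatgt
Kcnk1, chr8:125994852-125995101, plus strand: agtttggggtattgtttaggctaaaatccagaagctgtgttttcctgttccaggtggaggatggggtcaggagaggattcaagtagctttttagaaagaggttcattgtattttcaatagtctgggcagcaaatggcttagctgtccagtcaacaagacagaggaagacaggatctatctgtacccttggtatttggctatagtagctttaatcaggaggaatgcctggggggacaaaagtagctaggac
Kcnk2, chr1:189402274-189402523, minus strand: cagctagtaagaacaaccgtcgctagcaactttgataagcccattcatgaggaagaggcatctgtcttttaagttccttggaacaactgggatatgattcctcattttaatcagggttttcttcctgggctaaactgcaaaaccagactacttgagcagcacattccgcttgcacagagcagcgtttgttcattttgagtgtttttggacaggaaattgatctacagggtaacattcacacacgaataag
The start used for Kcnj4 lies 7270 bases inside the annotated gene, that of Kcnk1 1447 and that of Kcnk2 509, and which starts are used in striatum was not analysed here. The Kcnj4 window held 35 CpG dinucleotides, more than 97.0% of 32851 such windows, with a GC content of 77.2%. It matched the GC box 3 times, which 32.7% of all windows held at least once, and TGACG once, which 17.8% held. The Kcnk1 window held 0 CpG dinucleotides and no match, and the Kcnk2 window held 5 and no match. Of the other 3 Kcnk2 starts, 1 window matched the GC box and 1 the Egr motif, which 4.70% of all windows held. These windows held 27 and 28 CpG dinucleotides, more than 91.4% and 92.4% of all windows. The GC box was also matched in windows of Kcnj2, Kcnj6, Kcnj10 and Kcnj16, which did not pass the threshold. The full element TGACGTCA was in no window of the 9 genes that had one and in 1.55% of all windows. A match describes these letters alone.

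Kcnj3 encodes Kir3.1, or GIRK1, the subunit that neuronal G protein-gated channels combine with Kir3.2 or Kir3.3. Its brightest probe set read 6.42, 6.86, 7.30 and 7.60 in mutants 141, 153, 154 and 191, against 6.51, 6.12, 6.15 and 6.28 in wild-type 161, 170, 180 and 200. Of the 4 mutants, 3 were above all wild-type mice and mutant 141 was below wild-type 161, so the groups overlapped. The spread was wider in mutants (7.05 ± 0.51) than in wild-type mice (6.27 ± 0.18, SD, n = 4 each). The log2 change was 0.88 (SE 0.24, 95% interval 0.35 to 1.42, limma adjusted p = 0.0387), 1.84-fold higher in mutants.

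This rise depended on single mice. Its log2 change was 0.35 without mutant 191 (limma adjusted p = 0.547) and 1.42 without wild-type 161, fits in which the only comparison left within a sex is among females or among males. With no sex term it was 0.60 without 191 (limma adjusted p = 0.0533) and 0.86 without 161 (limma adjusted p = 0.0277). The call was also lost without mutants 153 or 154 (limma adjusted p = 0.0507 and 0.0624) and without wild-type 170, 180 or 200 (limma adjusted p = 0.0701, 0.0767 and 0.0719). In all, it was lost in 12 of 21 other settings. The brightest probe set did not pass when tested among all probe sets (limma adjusted p = 0.0696). A probe set with all values under 5 did, at 3.65, 3.65, 3.76 and 4.19 in mutants 141, 153, 154 and 191, against 3.48, 3.51, 3.57 and 3.44 in wild-type 161, 170, 180 and 200 (log2 change 0.45, limma adjusted p = 0.0436). This call was lost in 8 of 10 other settings, among them no sex term (limma adjusted p = 0.144) and the fit without wild-type 170 (limma adjusted p = 0.0612), and its log2 change was 0.21 without mutant 191. The other 2 probe sets of Kcnj3, also under 5, gave log2 changes of 0.27 and 0.01 and did not pass.

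Kcnj6 and Kcnj9 encode Kir3.2 and Kir3.3, the partners of Kir3.1 in the brain. All 5 probe sets of Kcnj6 lay under 5 on all arrays, with log2 changes between -0.18 and 0.08, and none passed. Kcnj9 read 7.39, 7.17, 7.63 and 7.44 in mutants 141, 153, 154 and 191, against 7.38, 7.29, 7.24 and 7.06 in wild-type 161, 170, 180 and 200. The groups overlapped and the log2 change was 0.13 (95% interval -0.14 to 0.40, limma adjusted p = 0.586). Its other 3 probe sets gave -0.14, 0.04 and 0.13. In a probe set of Kcnj9 at a middle level, mutant 191 read 5.82, below the other 3 mutants at 6.29 to 6.33. The changes of Kcnj3 and Kcnj9 differed by 0.62 log2 units, which did not pass (two-sided exact permutation p = 0.0857, adjusted over 4 subunit pairs 0.114). No such difference is given against Kcnj6 or Kcnj2, whose values were near background.

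**Figure D2:**
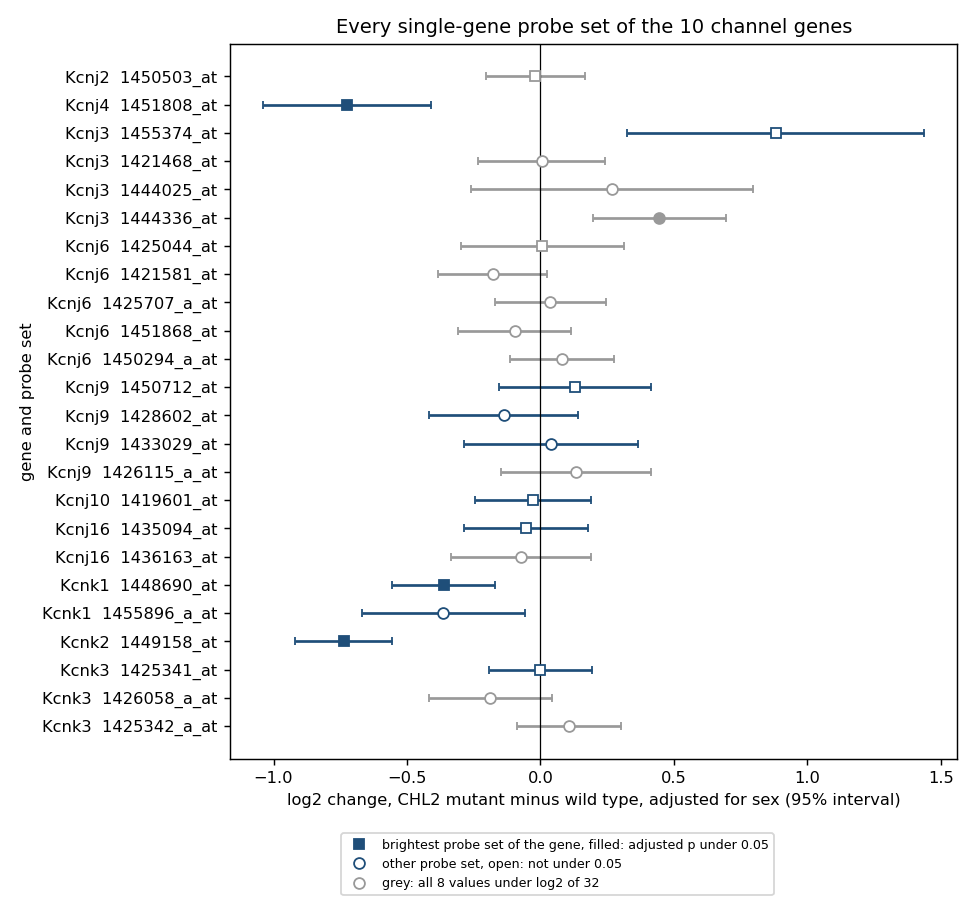
Sex-adjusted log2 change, CHL2 mutant minus wild type, with 95% interval (x axis) for each of the 24 probe sets (y axis), squares for the brightest probe set of a gene, filled where the adjusted p over all 45037 probe sets is under 0.05 and grey where all 8 values are under 5. The 3 filled blue squares on the left are Kcnj4, Kcnk1 and Kcnk2, the filled grey point is the dim Kcnj3 probe set at 0.45, and the brightest Kcnj3 probe set at 0.88 is open.

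Tested as separate probe sets, 3 of the 24 fell and 1 rose, against 3.44% and 3.26% of all 45037 probe sets (6.70% in either direction), and 13 of the 24 had all 8 values under 5. Mutants and wild-type mice were fully separated for 4 of the 24, 3 of them lower in mutants, and for 15.4% of all probe sets, of which those lower in mutants made 7.07%.

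Kcnj10 encodes Kir4.1, the main inward rectifier of astrocytes. Its single probe set read 8.89, 8.75, 9.003 and 9.15 in mutants 141, 153, 154 and 191, against 8.98, 9.18, 9.08 and 9.03 in wild-type 161, 170, 180 and 200. The groups overlapped (8.95 ± 0.17 in mutants and 9.07 ± 0.09 in wild-type mice, SD, n = 4 each). The log2 change was -0.03 (95% interval -0.24 to 0.18, limma adjusted p = 0.896), and over 21 other settings it lay between -0.19 and 0.05 and never passed. Kcnj16 encodes Kir5.1, which joins Kir4.1 in glial channels. It read 5.38, 5.51, 5.56 and 5.41 in mutants 141, 153, 154 and 191, against 5.70, 5.37, 5.19 and 5.34 in wild-type 161, 170, 180 and 200. These groups overlapped as well, with a log2 change of -0.05 (95% interval -0.28 to 0.17, limma adjusted p = 0.801). The difference of the changes of Kcnj10 and Kcnj16 was -0.19 (two-sided exact permutation p = 0.314, adjusted 0.314).

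**Figure D3:**
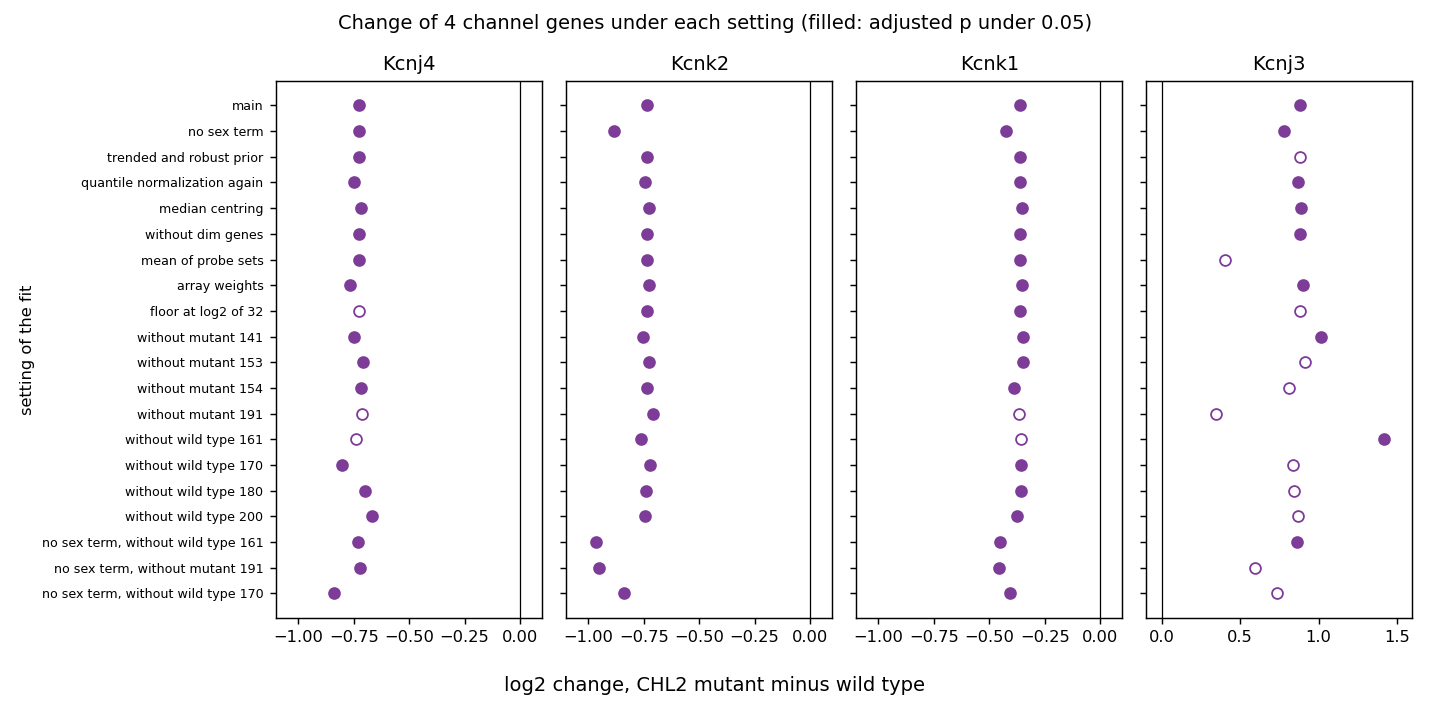
Log2 change, CHL2 mutant minus wild type (x axis), of Kcnj4, Kcnk2, Kcnk1 and Kcnj3 under each setting of the fit (y axis, other thresholds not drawn), filled where the adjusted p is under 0.05. Kcnk2 stays between -0.96 and -0.71 and is filled throughout, Kcnj4 and Kcnk1 keep their size, with open points where mice 161 or 191 are left out with sex in the model and, for Kcnj4, with the floor, and Kcnj3 ranges from 0.35 without mutant 191 to 1.42 without wild-type 161.

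The sexes were compared within the same design, in which the female wild-type and male mutant cells hold 1 mouse each. For Kcnj4 the log2 change was -0.71 in females and -0.74 in males, for Kcnk2 -0.71 and -0.76, and for Kcnk1 -0.37 and -0.36. For Kcnj3 it was 0.35 in females and 1.42 in males, an interaction of -1.07 with an unadjusted p of 0.0177 in limma and an adjusted p of 0.969 over all genes. No member passed the interaction test, which called 1 of 18193 genes, with 917 at an unadjusted p under 0.05.

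Levels of cell type markers were read on the same arrays, as the mean over a list of each gene's log2 value minus its mean over 8 mice. The list of medium spiny neuron markers lay between -0.76 and -0.52 in mutants and between 0.55 and 0.68 in wild-type mice, and 21 of its 22 measured genes fell, among them Scn4b, Penk, Gpr6 and Rgs9. Pan-neuronal markers lay between 0.02 and 0.22 in mutants and between -0.24 and -0.0049 in wild-type mice, with 3 of 13 higher (Stmn2, Uchl1 and Gap43) and 0 lower. Astrocyte markers lay between -0.10 and 0.00 in mutants and between -0.05 and 0.12 in wild-type mice, with Gfap and S100b higher, and Slc4a4 and Ntsr2 lower, of 17. The groups overlapped for Gfap, and its call was lost in 6 of 21 other settings. Interneuron markers lay between -0.13 and -0.02 in mutants and between 0.06 and 0.10 in wild-type mice, with Nos1 and Kit lower of 11, though the call of Kit was lost in 12 of 21 other settings, among them the fit without wild-type 170. For oligodendrocytes the list lay between -0.09 and -0.03 in mutants and between -0.04 and 0.20 in wild-type mice, with Opalin higher, and Fa2h and Mobp lower, of 12. The call of Opalin was lost in 7 of 21 other settings. Oligodendrocyte precursor markers lay between 0.05 and 0.13 in mutants and between -0.15 and 0.00 in wild-type mice, with Olig1 higher of 6. Microglia markers passed in 0 of 11 cases in the limma fit, and endothelial and mural markers in 1 of 13 (Cdh5, lower, with all values under 5). Cortical neuron markers passed in 1 of 5 (Fezf2, lower, with overlapping groups and no call without a sex term). Their list lay between -0.97 and 0.76 in mutants and between -0.30 and 0.63 in wild-type mice. Choroid plexus and ependyma markers passed in 0 of 6. This list lay between -0.79 and 1.27 in mutants and between -0.55 and 0.78 in wild-type mice. Both lists varied more between mice of 1 group than the other lists did. At the level of whole lists, 4 of 10 did not overlap between the groups and none passed after adjustment over the 10 (two-sided exact permutation p of 0.0286 at the lowest, the smallest that 4 mice against 4 allow, adjusted 0.0714).

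Differences of group means, with no term for sex, were set against these lists. On that scale the falls of Kcnj4 and Kcnk2 were smaller than that of the medium spiny neuron list. They were larger there than the shifts of the other lists. In the sex-adjusted fit, however, the median log2 change of the 5 cortical neuron markers was -0.67. That is near the adjusted changes of Kcnj4 (-0.72) and Kcnk2 (-0.74). On the scale of each value minus the list, mutant minus wild type, Kcnk2 stood 0.36 log2 units above the medium spiny neuron list (between 0.10 and 0.28 in mutants and between -0.34 and -0.04 in wild-type mice) and Kcnj4 0.52 above it, so both fell by less than the list. Relative to the pan-neuronal list, Kcnk2 changed by -1.09, Kcnj4 by -0.93 and Kcnk1 by -0.63. Relative to the astrocyte list, Kcnk2 changed by -0.80, Kcnj4 by -0.64, Kcnk1 by -0.34 and Kcnj10 by -0.04. The groups did not overlap in any of these comparisons except that of Kcnj10 (two-sided exact permutation p = 0.0286 for each, and 0.771 for Kcnj10). Of 30 gene and list pairs, those of the dim Kcnj2 and Kcnj6 included, 17 reached 0.0286, which gave an adjusted p of 0.0504, so none passed. Among the 17 were all 10 channel genes against the medium spiny neuron list, whose own groups differed by -1.24. Even Kcnk3, which had no call, reached this p there. Against that list, the p therefore tells only that a gene fell by less than the list. On the mean of probe sets, Kcnk2 stood 0.22 above the medium spiny neuron list and the groups overlapped (two-sided exact permutation p = 0.0857). Kcnj4 stood 0.38 above it in that setting, without overlap. In tissue RNA, fewer cells of a type and less RNA per cell cannot be told apart. The part of cell composition in the falls was not tested.

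**Figure D4:**
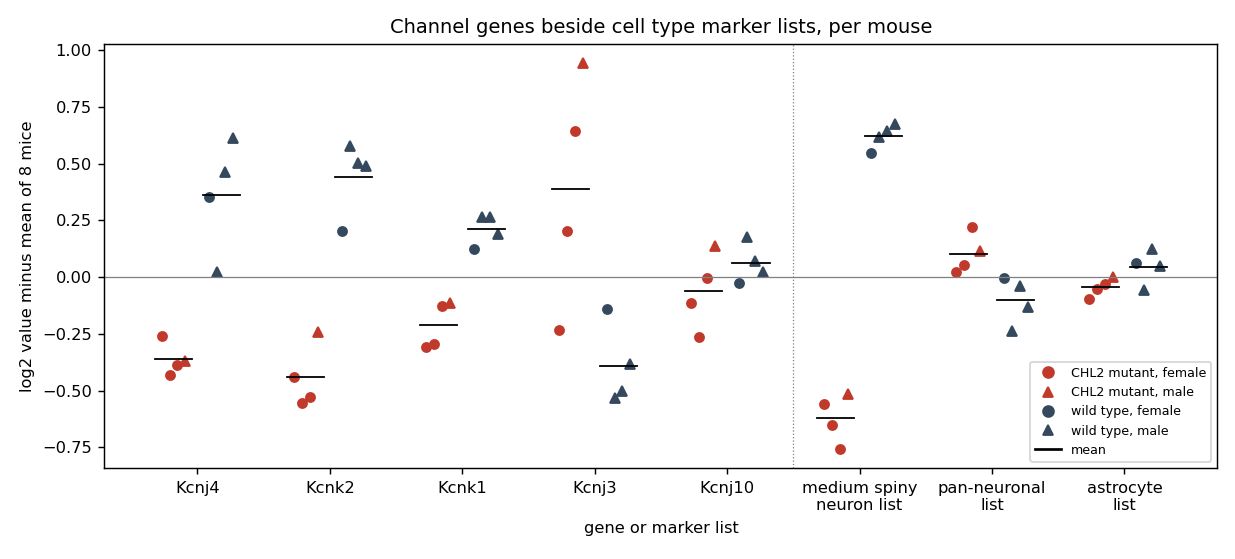
Log2 value minus the mean of 8 mice (y axis) for 5 channel genes and the mean over 3 marker lists (x axis), per mouse, with CHL2 mutants in red left of wild-type mice in blue, circles for females, triangles for males and bars for group means. The medium spiny neuron list separates the groups most widely, Kcnj4, Kcnk2 and Kcnk1 separate them without overlap, and Kcnj10 and the astrocyte list overlap.

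Among other genes of these families, 1 of 17 measured passed, against 12.4% of all genes. Of 8 other inward rectifier genes, none passed, and 4 had all values under 5. The KATP pore subunit gene Kcnj11, a channel closed by ATP, had a log2 change of -0.29 (limma adjusted p = 0.197), and its regulatory subunit gene Abcc8 had -0.58 (limma adjusted p = 0.0526). Of 9 other two-pore genes, 6 had all values under 5, and Kcnk13 fell. This gene encodes THIK-1, the main background potassium channel of microglia. Kcnk13 averaged 5.52 ± 0.15 in mutants and 6.16 ± 0.24 in wild-type mice (SD, n = 4 each), with no overlap, a log2 change of -0.59 and a limma adjusted p of 0.0213. This call was lost without 161 or 191, on the mean of its probe sets, with a floor at 5 and at a threshold of 0.01.

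Receptors that open G protein-gated inward rectifiers fell in 6 of 17 measured cases and rose in 1, against 6.01% and 6.40% of all genes. All values lay under 5 for 7 of the 17, and Drd2 is also in the medium spiny neuron list. The dopamine D2 receptor gene Drd2 was 2.68-fold lower in mutants, the cannabinoid receptor gene Cnr1 2.99-fold and the kappa opioid receptor gene Oprk1 2.06-fold, while the nociceptin receptor gene Oprl1 was 1.92-fold higher (limma adjusted p between 2.56e-05 and 0.000640). Their median was -0.17 on the log2 scale.

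G protein subunits and RGS proteins, which open the channels and speed their closing, fell in 6 of 18 cases and rose in 2. Over all genes, 6.01% fell and 6.40% rose. The median log2 change of the list was -0.21. Rgs9, which is also in the medium spiny neuron list, was 2.91-fold, Rgs4 2.56-fold and Rgs7bp, the membrane anchor of Rgs7-family proteins, 1.79-fold lower in mutants. Gng7 also fell (log2 change -0.86) and is in the medium spiny neuron list too. The gamma subunit gene Gng4 was 2.53-fold higher (9.501 ± 0.13 in mutants and 8.02 ± 0.35 in wild-type mice, SD, n = 4 each, limma adjusted p = 0.000433).

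Scaffold and trafficking partners fell in 3 of 19 cases, 1 without mutant 191 and 5 with a trended and robust prior, and rose in 0, with a median change of -0.07. Akap5, the anchor that brings protein kinase A to TREK-1, was 1.81-fold lower in mutants (limma adjusted p = 0.000326). Lin7b, whose family binds the tails of Kir2 channels together with Cask, was 1.57-fold lower, and the actin cross-linker gene Flna 1.41-fold lower. The call of Flna was lost in 4 of 21 other settings, that of Akap5 on the mean of probe sets and that of Lin7b without mutant 191. Receptors and enzymes that act on two-pore channels or on the membrane lipid PIP2 fell in 5 of 16 cases, or 2 without mutant 191, and rose in 1 (Htr2c). The count that rose was 4 with no sex term or without dim genes and 3 with a trended and robust prior, with 5 lower in each, and it was 0 without any 1 of mutants 141, 153 and 191 and wild-type 161, 180 and 200. Prkcb was 1.64-fold lower in mutants, the glutamate receptor gene Grm5 1.61-fold, the phospholipase gene Plcb1 1.498-fold and the muscarinic receptor gene Chrm1 1.44-fold. The call of Chrm1 was lost in 4 of 21 other settings, and that of Plcb1 without mutant 191. The list's median was -0.02. For both this list and that of the scaffold partners, the shares over all genes were 6.01% lower and 6.40% higher.

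The genes with the most similar profiles over the 8 mice were found by the smallest root mean square difference of log2 values centred on each gene's mean. For Kcnk2 these were AI593442, Pde7b and Osbpl8, with differences of 0.06, 0.06 and 0.07 log2 units. For Kcnj4 they were Sorcs2, Chn1 and Cap1, at 0.08, 0.08 and 0.10. For Kcnk1 they were Ndfip2, Brwd1 and Pde8a, at 0.03, 0.04 and 0.04. For Kcnj3 the closest were Klhl14, Cracd and Stxbp5 at 0.19, 0.20 and 0.20. All values of Klhl14 were under 5.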

How the data were processed

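Per the labels, striatal total RNA of 8 mice was labelled with biotin and hybridised to 1 array each. The authors deposited log2 values per probe set, made with RMA and the affy package per the submitters' processing notes, with versions not stated there. RMA equalises arrays and compresses fold changes of dim genes. Of 45101 probe sets, 64 controls were left out, and 34945 of the rest had 1 gene symbol. No value was changed and no array left out. Genes were represented by their brightest single-gene probe set over the 8 arrays (18193 genes), and all 45037 non-control probe sets were also fitted. The test was limma 3.58.1 (lmFit, eBayes) in R 4.3.3 with genotype and sex, adjusted by Benjamini-Hochberg over all features, and it was tested on simulated data. Exact permutation tests over 70 assignments used Python 3.11.15 and had no term for sex. Motifs were searched in promoter windows of 250 bases. The channel genes and gene lists were chosen with earlier results of these data known, so they are no independent support. Named genes are the 10 channel genes, up to 4 genes of each list with the lowest adjusted p under 0.05, and the 3 closest profiles of each channel gene that passed. Kcnj11, Abcc8, Gng7 and Htr2c were named after their values were seen. Alternatives were a fit without sex, other priors, normalizations, filters, probe set rules, weights, thresholds, a floor at log2 of 32 and each mouse left out. The fit without both sex and wild-type 170 was added after seeing the data. Replicate mice are separate animals by their numbers.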

Additional observations from a re-analysis of the deposited data

Results flagged for a closer look

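Groups of 4 mice in which 1 mouse stood far from the others were searched in 80 groups of values, where chance marks about 1 in 20 groups, and 4 were found. In wild-type mice the 3' minus 5' difference of mouse 170 was 1.37 for Gapdh, against 0.32 to 0.34 in the other 3, and 2.65 for beta-actin, against 1.36 to 1.43. The interneuron marker list was lowest in the same mouse, at 0.0565, against 0.0964 to 0.104 in the other 3. In mutants, the second-brightest Kcnj9 probe set read 5.82 in mouse 191, against 6.29 to 6.33 in the other 3.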

How the results depend on the processing

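Of the channel genes, 3 fell, against 1 without mutant 191, 1 without wild-type 161, 2 with a floor at log2 of 32 (without Kcnj4) and 2 at a threshold of 0.01 (without Kcnk1), and 3 in the other settings, a range of 1 to 3 over the fits without 1 mouse. The count that rose, 1, was 0 with a trended and robust prior, on the mean of probe sets, with a floor at log2 of 32, at a threshold of 0.01, without mutant 191 and sex, and without wild-type 170 and sex, and 0 to 1 over the fits without 1 mouse. Among the 24 probe sets, the count that rose was 0 with the floor and 0 to 2 without 1 mouse, and the count that fell 1 to 4. Over all genes, 1164 rose and 1094 fell, against 450 and 579 at a threshold of 0.01. Over the fits without 1 mouse, 292 to 1145 rose and 410 to 1113 fell. The lows of 292 and 410 came without mutant 191, and without wild-type 161 the counts were 356 and 508. With sex left out as well, 1206 rose and 1291 fell without 191, and 1113 and 1287 without 161. With the floor, Kcnj4 kept its log2 change of -0.72 at an adjusted p = 0.0557, since flooring alters the variance shared among genes. Of 206 values of the channel genes under other settings, 188 stayed on their side of the threshold, 18 lost the call and 0 reversed while called. The losses came in 12 of 21 settings for Kcnj3, 3 of 21 each for Kcnj4 and Kcnk1, and 0 of 21 for Kcnk2. The other 6 genes had no call to lose. Of 714 list counts, 598 stayed within 1.5 times. On the mean of probe sets, no exact-test value passed after adjustment, as in the main setting, but sizes moved. The difference of the changes of Kcnj3 and Kcnj9 was 0.22 there, against 0.62. That of Kcnk2 and the medium spiny neuron list was 0.22, against 0.36. For the exact tests, leaving out 1 mouse could not break the limit set for a shift, so those values are no check. No paired analysis was possible because the groups share no replicate number. Signal near background limits Kcnj2, Kcnj6 and the dim Kcnj3 probe sets.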
